A study of Mus musculus with 16 samples.

Results

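Open chromatin was compared between diabetic and control bone marrow progenitors after both had been cultured with interleukin-1 beta (IL-1β). The 8 libraries with this stimulus were used, 4 from diabetic and 4 from control mice, of 16 libraries in the whole series. The mice were male C57Bl/6. Diabetes had been induced with streptozotocin (STZ), a toxin of the insulin-producing beta cells, and the controls are labelled as having had no treatment. The cells are labelled haematopoietic stem cells, but they were obtained by depleting marrow of cells bearing CD3, CD4, B220, Ter119 or Gr1, so they are a lineage-negative mixture of stem cells, progenitors and whatever mature cells escaped depletion. A portion of each mouse sample had been lysed at once and serves here only as the baseline, while the rest spent 6 h in culture with IL-1β at 10 ng/mL. Culture without the cytokine was not analysed here. The diabetic and control groups compared below share both the culture and the stimulus. The baseline had neither, so comparisons with it cannot tell the culture from IL-1β. Accessibility was measured on 50000 cells per replicate by ATAC-seq, which reads where a transposase can insert adapters into exposed DNA. Ages and degrees of hyperglycaemia are not given in the labels.

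Regions were built from the peak lists of these 8 libraries alone. Joining peaks that overlapped or touched gave 83752 regions, and the 17599 found in a single library were set aside. The remaining 66153 regions were called in at least 2 of the 8 libraries, and 28531 were called in all 8, termed shared regions below. The same procedure over all 16 libraries kept 83972 regions.

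IL-1β is an alarm cytokine of innate immunity. It binds the receptor IL1R1, which pairs with the accessory protein IL1RAP and signals through MYD88 and the IRAK kinases to NF-κB and AP-1. In the marrow it drives stem and progenitor cells toward myeloid output, and diabetes is known for raised circulating neutrophils and monocytes. Mature neutrophils carry granule proteins such as lactoferrin (Ltf) and the calcium-binding pair S100a8 and S100a9, together with the NADPH oxidase that makes superoxide.

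The sequences of 4 promoters are printed because the regions over them show both directions of difference reported below. Each line gives the 250 bases upstream of the transcription start, 5′ to 3′ on the strand of the gene, from RefSeq for build GRCm38.p6, with every CG dinucleotide in capitals. Ltf (chr9:111019042-111019291, plus strand) and S100a8 (chr3:90668821-90669070, plus strand) had lower summits in the diabetic libraries and were picked after their values were seen. Rundc3b (chr5:8622953-8623202, minus strand), which encodes a RUN-domain protein, and Cyp46a1 (chr12:108334066-108334315, plus strand), the cholesterol 24-hydroxylase, had higher summits.
Ltf: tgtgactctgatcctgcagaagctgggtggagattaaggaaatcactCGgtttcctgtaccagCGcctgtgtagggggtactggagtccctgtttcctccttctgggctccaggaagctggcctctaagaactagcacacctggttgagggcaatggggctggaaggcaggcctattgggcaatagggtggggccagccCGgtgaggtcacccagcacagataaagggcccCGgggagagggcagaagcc
S100a8: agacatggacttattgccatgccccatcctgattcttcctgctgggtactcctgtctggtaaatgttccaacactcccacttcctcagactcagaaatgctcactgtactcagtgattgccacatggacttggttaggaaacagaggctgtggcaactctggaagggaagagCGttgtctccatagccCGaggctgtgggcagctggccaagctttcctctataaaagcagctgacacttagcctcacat
Rundc3b: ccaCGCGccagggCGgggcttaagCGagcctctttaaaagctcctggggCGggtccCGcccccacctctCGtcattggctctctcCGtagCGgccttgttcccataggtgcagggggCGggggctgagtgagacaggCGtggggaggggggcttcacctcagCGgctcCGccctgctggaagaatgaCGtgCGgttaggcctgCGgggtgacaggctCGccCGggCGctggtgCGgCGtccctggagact
Cyp46a1: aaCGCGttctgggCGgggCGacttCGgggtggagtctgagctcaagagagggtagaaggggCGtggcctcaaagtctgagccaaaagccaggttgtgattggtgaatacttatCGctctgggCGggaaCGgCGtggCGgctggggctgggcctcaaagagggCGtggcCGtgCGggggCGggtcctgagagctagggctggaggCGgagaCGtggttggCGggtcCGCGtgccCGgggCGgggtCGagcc
The Ltf and S100a8 windows hold 4 and 2 CG dinucleotides, and the Rundc3b and Cyp46a1 windows hold 21 and 23. GC content is 59.2% and 50.8% in the former pair and 69.2% and 67.6% in the latter. The S100a8 window carries the ETS/PU.1 motif GAGGAAGT on its lower strand, with its first base at -172 from the start. None of the NF-κB, RUNX, AP-1, ETS/PU.1 and C/EBP motifs searched is in the other three windows.

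Library-wide measures did not separate the phenotypes. The control libraries, in replicate order, held 67779, 37543, 49177 and 57434 peaks, and the diabetic libraries held 51109, 64700, 47255 and 51433. The groups overlapped, with means of 53624 ± 7624 (SD, n = 4) peaks in diabetic and 52983 ± 12801 in control libraries (two-sided exact permutation test over 70 label assignments, p = 0.943). Control replicate 2 had the shortest list. The shared regions had a median of 26 to 44 reads at their summits across libraries. Of the strongest 37543 peaks of each library, 34.1 ± 0.203% in diabetic and 34.2 ± 0.505% in control libraries had their summit within 1 kb of either end of a gene (exact permutation p = 0.943). Summit reads over the lowest background level were 24.1 ± 3.69 in diabetic and 29.2 ± 6.90 in control libraries (exact permutation p = 0.314), and the exact p was 0.0857 without control replicate 2. Pairs of libraries of 1 phenotype had a mean Pearson r of 0.929 over shared summits, and pairs of different phenotypes 0.925, a difference of 0.00459 (one-sided exact test over 35 splits, p = 0.171). The smallest p that these designs can give is 0.0286. Without diabetic replicate 4 the difference in r was -0.00155.

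Marker genes fixed as lists were used to check the labelled cell type by counting which had a peak at a gene end in all 8 libraries. Granulocyte-monocyte progenitor genes met this in 10 of 12 cases, mature neutrophil genes in 9 of 12, erythroid genes in 9 of 11 and monocyte genes in 7 of 10. Stem cell genes met it in 6 of 16 cases. Kit and Flt3, receptors of early progenitors, were among the 6, while 8 stem cell genes, Slamf1 among them, had a gene-end peak in 0 libraries. Mast cell genes met it in 0 of 9 cases, eosinophil genes in 1 of 7, and B cell and T or NK cell genes in 2 of 10 and 2 of 12. Neutrophil and erythroid genes therefore had gene-end peaks about as regularly as progenitor genes in libraries of both phenotypes. Such a peak can also lie at a neighbouring gene, and Cd3d and Cd79a, of the T and B cell lists, had one in all 8 libraries. In bulk libraries, fewer cells of a type and less accessible DNA per cell cannot be told apart.

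No shared region passed the test for a phenotype difference. The height of the highest summit was taken as its read count, recovered from the deposited peak values and scaled so that all libraries had equal medians. In the limma fit with Benjamini-Hochberg adjustment, 0 of 28531 regions were higher and 0 lower in diabetic libraries (percent called 0.0 and 0.0), and the smallest adjusted p was 0.458. At an unadjusted limma p under 0.05, 1360 regions (4.77%) had higher and 800 (2.8%) had lower summits in diabetic libraries, 7.57% in all. The values of the groups did not overlap in 669 regions (2.34%) with higher and 379 (1.33%) with lower diabetic values. The median log2 difference, diabetic minus control, was 0.04, and the central 80% of regions lay between -0.21 and 0.29. The lower quartile was -0.08, so 0 lies between the lower quartile and the median of all regions. Counts of regions below 0 in the gene lists are read against that. The 95% interval of the difference lay within 1 log2 unit either way in 98.3% of regions and within 0.5 in 55.4%, with a median SE of 0.17. Only 3 regions differed by 1 log2 unit or more, near Lgmn, Pim1 and Clint1, all higher in diabetic libraries. Scaling by the background level moved the median of all regions to -0.21, and the differences of gene groups are therefore read against that of all regions.

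The region of smallest p lay in the body of Lgmn, which encodes legumain, a lysosomal cysteine protease (chr12:102426284-102426697). Its scaled summit reads were 28.9, 10.0, 15.2 and 17.7 in control and 32.6, 41.1, 53.9 and 27.9 in diabetic libraries. Control replicate 1 reached above diabetic replicate 4, so the groups overlapped. The log2 difference was 1.17 ± 0.24 (SE; limma, Benjamini-Hochberg adjusted p = 0.458). Without control replicate 1 it was 1.44, and this was the 1 region to pass (limma, adjusted p = 0.0111).

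Among regions whose groups did not overlap, the 12 of smallest p with higher diabetic summits were near genes of varied function. The region at the start of Lca5, the ciliary protein lebercilin (chr9:83440706-83441385), had 39.9, 32.6, 28.2 and 37.2 reads in control and 48.8, 50.5, 49.4 and 67.4 in diabetic libraries. All diabetic values stood above all control values, with a log2 difference of 0.65 ± 0.14 (SE; limma, Benjamini-Hochberg adjusted p = 0.458). A region 43116 bp from Pim1, a kinase gene induced by cytokines through STAT factors (chr17:29447321-29447669), had 7.40, 16.3, 8.68 and 14.9 control reads against 30.6, 20.6, 18 and 32.6. Its log2 difference was 1.14 ± 0.25. The region over the start of Rundc3b (chr5:8622225-8623327), whose upstream sequence is printed above, had 37.0, 36.3, 39.1 and 42.8 reads in control and 55.5, 50.5, 55.0 and 59.3 in diabetic libraries, a log2 difference of 0.51 ± 0.12.

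A region 12256 bp from the start of Ccr9, the receptor of the gut-homing chemokine CCL25 (chr9:123754371-123754955), had 12.6, 16.3, 10.9 and 22.3 control reads against 29.7, 25.7, 29.2 and 29.1 diabetic reads, and differed by 0.93 ± 0.22. At the start of Cyp46a1 (chr12:108333823-108334495), control libraries had 53.3, 42.6, 60.8 and 57.7 reads and diabetic libraries 68.0, 73.7, 66.2 and 82.5, a log2 difference of 0.45 ± 0.11. Near Kcnc1, a voltage-gated potassium channel gene (chr7:46389604-46390059), the control values of 11.8, 12.5, 11.9 and 9.30 all lay below the diabetic values of 25.8, 22.3, 16.8 and 23.3. The log2 difference there was 0.94 ± 0.22. The others lay near Clint1 (1.04), Dennd4c (0.93), Arl6ip5 (0.85), Ext1 (0.84), Tacc1 (0.77) and, at chr17:52162490-52163381, no gene within 50 kb (0.76). Low read numbers stood behind several of them, with 5.92 to 12.1 control reads at Clint1 and Dennd4c.

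Save for those with no gene within 50 kb, the 12 with lower diabetic summits lay in introns, exons or flanks of genes. The annotation used here does not tell these apart, and none of the 12 overlapped a transcription start of the reference table. In the body of Tex33, named for its expression in testis (chr15:78390826-78391293), control libraries had 44.4, 60.1, 54.3 and 41.9 reads and diabetic libraries 36.4, 28.3, 35.9 and 22.1. The difference of -0.72 ± 0.16 on the log2 scale (SE; limma, Benjamini-Hochberg adjusted p = 0.458) had the smallest p in this direction. Within Actn1, encoding the actin cross-linker alpha-actinin (chr12:80210428-80211236), 57.0, 50.1, 56.4 and 39.99 control reads stood against 34.5, 36.0, 33.7 and 29.1, a difference of -0.60 ± 0.14. Within Rbms1, a single-stranded nucleic acid binding protein gene (chr2:60901433-60901980), the groups were tight, at 56.2, 51.3, 55.3 and 49.3 in control against 41.2, 33.4, 34.8 and 41.9 in diabetic libraries. The log2 difference was -0.49 ± 0.12.

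Near Phf21a, a reader of unmethylated histone H3 (chr2:92173246-92173579), reads were 19.2, 21.3, 27.1 and 20.5 in control and 15.3, 12, 8.98 and 10.5 in diabetic libraries, a difference of -0.93 ± 0.23. The remaining regions lay near Rprd1b (-0.86), Susd4 (-0.80), St8sia1 (-0.80), Lrmp (-0.73), Ckap4 (-0.57) and Tle3 (-0.48), and 2 had no gene within 50 kb, at chr12:115509004-115509405 (-0.74) and chr2:128296877-128297182 (-0.63). None of the 24 changed sign in any of 435 values under other scalings, measures, region sets and left-out libraries. They had been chosen for not overlapping, so leaving out a library could not change their sign, and those values are no test. Their separation in the plot of reads by region is likewise a description and no further evidence.

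**Figure D1:**
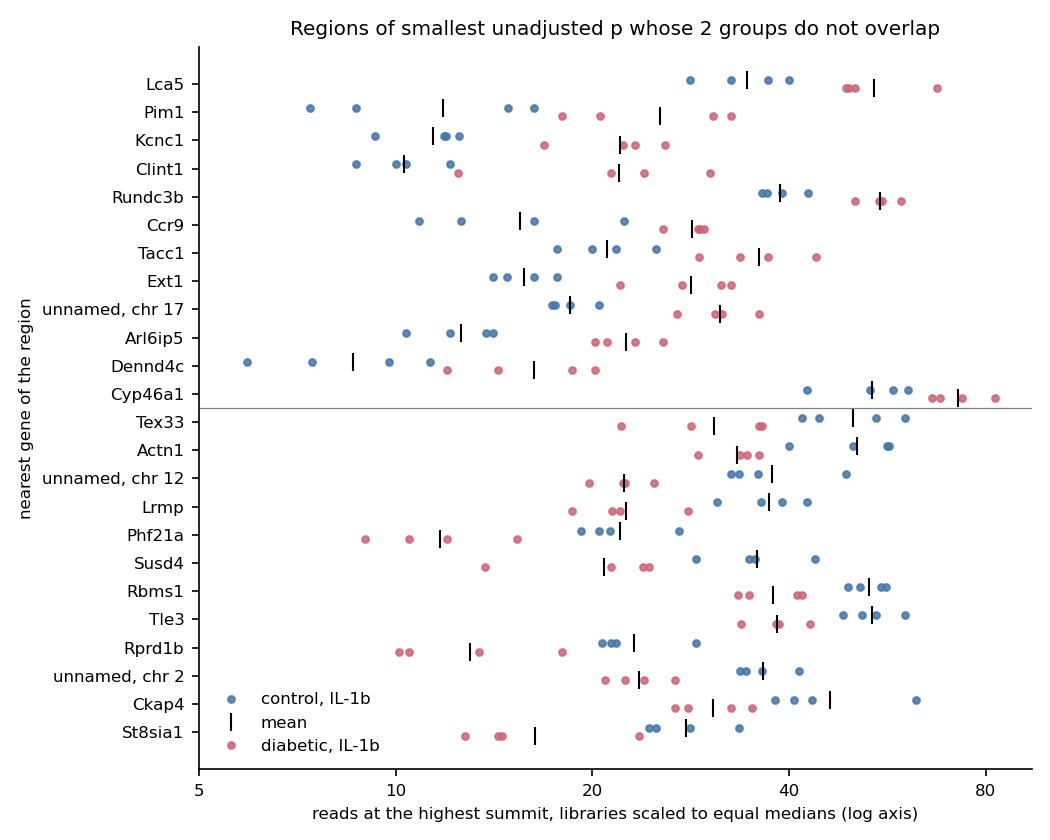
Scaled reads at the highest summit (log axis) of the 24 shared regions of smallest unadjusted limma p whose groups do not overlap, 1 point per IL-1β library and a black tick at the mean of 4. The upper 12 are higher in diabetic libraries, from a log2 difference of 0.45 at Cyp46a1 to 1.14 at Pim1, and the lower 12 are lower, from -0.48 at Tle3 to -0.93 at Phf21a. None passed after adjustment.

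Of the 27 gene lists, the mature neutrophil genes stood lowest in diabetic libraries. Shared regions within 10 kb of 11 of the 12 genes numbered 43. The exception was Ly6g, the gene of the main Gr1 antigen used for depletion, which had a gene-end peak in 5 libraries and no shared region. In 39 of 43 regions the log2 difference was below 0, with a median of -0.20 against 0.04 for all shared regions. The lower quartile of all shared regions was -0.08. None of the 43 passed after adjustment in limma. At an unadjusted p under 0.05, 13 were lower and 0 higher in diabetic libraries, and 5 were lower without overlap, against 2.8%, 4.77% and 1.33% of all shared regions.

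Per gene, lower regions at that unadjusted threshold made up 3 of 3 for Ngp, 2 of 3 for Ltf, 2 of 5 for S100a9, 2 of 8 for Itgam and 1 each for S100a8, Camp, Lcn2 and Mmp9. Mmp8, Retnlg and Cxcr2 had 0 among 4, 3 and 4 regions. Ngp encodes a cathelicidin-like granule protein. In its body (chr9:110422012-110424300), control libraries had 56.2, 86.4, 77.0 and 53.9 reads and diabetic libraries 50.7, 59.96, 38.2 and 37.2. The lowest control and the highest diabetic values overlapped, with a log2 difference of -0.56 ± 0.14 (SE; limma, Benjamini-Hochberg adjusted p = 0.473).

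At the start of Ltf, encoding the iron-binding granule protein lactoferrin (chr9:111018909-111019513), reads were 51.0, 66.4, 66.2 and 52.1 in control and 46.0, 48.0, 41.5 and 36.0 in diabetic libraries. These groups did not overlap, and the log2 difference was -0.46 ± 0.12 (SE; limma, Benjamini-Hochberg adjusted p = 0.473). A second region 1763 bp from that start (chr9:111017079-111017529) differed by -0.62 ± 0.21. Over the promoter of S100a8 (chr3:90668765-90669420), a subunit of the calprotectin alarmin, reads were 67.3, 91.4, 78.1 and 70.7 in control and 68.9, 72.0, 61.7 and 47.7 in diabetic libraries. Here the groups overlapped and the difference was -0.30 ± 0.12 (limma, Benjamini-Hochberg adjusted p = 0.576). The plot of neutrophil regions shows most intervals to the left of 0 and the regions of Mmp8, a collagenase gene, centred on it.

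**Figure D2:**
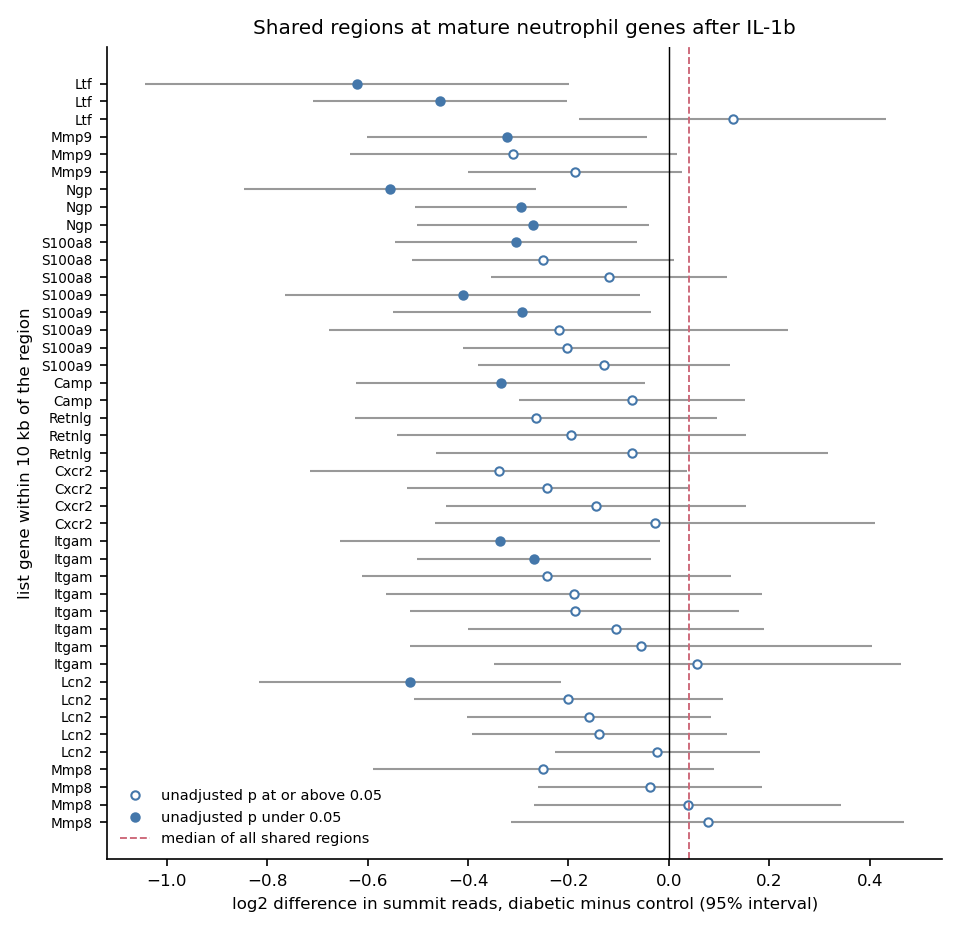
Log2 difference in scaled summit reads, diabetic minus control, with its 95% limma interval for each of the 43 shared regions within 10 kb of a mature neutrophil gene. Filled points mark the 13 regions at an unadjusted p under 0.05, all below 0, and the dashed line marks the median of all shared regions, 0.04. On the scale of the deposited fold over local background the list's median is 0.04 and the direction of most regions is reversed.

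Summed over the 43 regions, scaled summit reads were 1890, 2289, 2013 and 1910 in control and 1864, 1795, 1760 and 1576 in diabetic libraries. The means were 2025 ± 183 and 1749 ± 123 (SD, n = 4), and the ranges did not overlap, though control replicate 1 and diabetic replicate 1 were close. The local background that the peak caller assigned to these summits was lower in the same libraries. Relative to its mean over all shared regions it was 2.07, 2.25, 2.34 and 1.86 times in control and 1.79, 1.79, 1.56 and 1.34 times in diabetic libraries. Control values averaged 2.13 ± 0.212 and diabetic values 1.62 ± 0.218 (SD, n = 4), again without overlap.

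The ratio of summits to their surroundings was not lower. Measured as the deposited fold over local background, the list's median was 0.04 against 0.02 for all regions, with 0 regions lower and 5 higher at an unadjusted limma p under 0.05. On that scale the Ngp, Ltf and S100a8 regions differed by 0.03, 0.05 and 0.24. Under cyclic loess the median was -0.24 with 16 regions lower, and under background scaling -0.46 with all 43 below 0, against all-region medians of 0.01 and -0.21. Without control replicate 2, whose sum was the highest, it was -0.14 with 8 regions lower. Among 13 alternatives of scaling, measure, weights and left-out libraries, the list's median less that of all regions lay between -0.29 and 0.02, and the deposited fold gave the only value above 0. The part of neutrophils that escaped depletion in this difference was not tested.

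Erythroid genes showed the opposite sign, although sums over the list overlapped between the groups. Their list had the highest median of the 27, 0.25 over 25 shared regions of 11 genes, and 4 regions lay below 0. None passed after adjustment in limma, 5 were higher and 0 lower at an unadjusted p under 0.05, and 2 were higher without overlap, against 4.77%, 2.8% and 2.34% of all shared regions. Those 2 were a region counted for Klf1 that overlapped the start of Dnase2a and a region counted for Hba-a1 that lay outside gene bodies. In the body of Alas2, the first enzyme of haem synthesis in red cells (chrX:150564639-150565076), reads were 9.62, 13.8, 10.9 and 17.7 in control and 15.3, 17.1, 25.8 and 26.7 in diabetic libraries. The highest control value lay above the 2 lowest diabetic values, and the log2 difference was 0.71 ± 0.24 (limma, Benjamini-Hochberg adjusted p = 0.523). In the gene of the erythropoietin receptor, Epor (chr9:21962318-21962875), 23.7, 33.8, 18.4 and 37.2 control reads overlapped with 32.6, 40.3, 31.4 and 51.2 diabetic reads, at a log2 difference of 0.48 ± 0.19.

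The region near the alpha-globin gene Hba-a1 (chr11:32285086-32285906) differed by 0.52 and that at the carbonic anhydrase gene Car1 by 0.56. The 3 regions of Slc4a1, the band 3 anion exchanger, ranged from 0.25 to 0.35, none at an unadjusted p under 0.05. Nfe2 and Tfrc did not share this direction, at -0.18 to 0.00 and -0.00 to 0.02. Sums over the list were 942, 1296, 1020 and 1233 in control and 1108, 1141, 1234 and 1335 in diabetic libraries, and overlapped, with means of 1123 ± 169 and 1204 ± 102 (SD, n = 4). The local background of these regions relative to all was 1.28 ± 0.145 in control and 1.30 ± 0.0592 in diabetic libraries. The excess of the list's median over that of all regions, 0.21, was 0.07 without control replicate 1, 0.09 without control replicate 3, 0.08 without diabetic replicate 4 and 0.05 on the deposited fold.

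**Figure D3:**
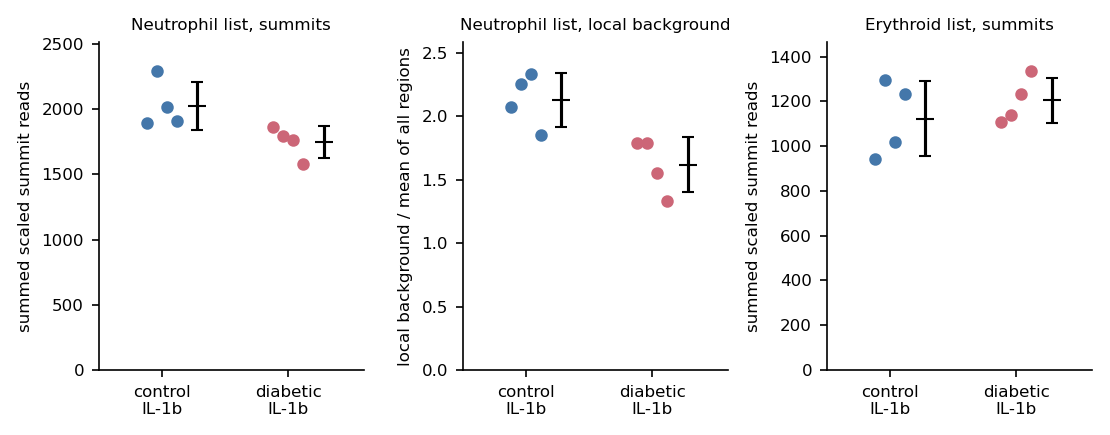
Values per IL-1β library (points) with mean and SD of 4 (black). The left and right panels give summed scaled summit reads of the 43 neutrophil and 25 erythroid regions, and the middle panel gives the mean local background at the neutrophil regions divided by that over all shared regions. Neutrophil summits lie between 1576 and 1864 in diabetic and between 1890 and 2289 in control libraries, and their local background is also lower in diabetic libraries, while the erythroid sums overlap.

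The remaining marker lists showed smaller medians. Over all shared regions, 4.77% were higher and 2.8% lower at an unadjusted limma p under 0.05. Granulocyte-monocyte progenitor genes had 0 higher and 1 lower of 29 regions at an unadjusted limma p under 0.05 and a median of -0.05, and stem cell genes had 1 and 0 of 18 and a median of -0.02. The stem cell region was the start of Meis1, a self-renewal factor (chr11:19018805-19019194), with a log2 difference of 0.40 ± 0.17. Monocyte genes had 1 higher and 2 lower of 23, both lower ones at Lyz2, the lysozyme gene that neutrophils share, at -0.36 and -0.47. On the deposited fold these were 0.04 and 0.01. B cell genes had 3 higher and 0 lower of 13, among them Cd79b (0.66 ± 0.22) and Ebf1 (0.52 ± 0.23), with a list median of 0.02. The region counted for Cd79b lay in the body of Gh. Dendritic cell genes had 2 and 0 of 25, stromal and endothelial genes 2 and 1 of 9, and the megakaryocyte, T or NK, mast cell and eosinophil lists 0 and 0 of 17, 11, 6 and 6.

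The NADPH oxidase and antioxidant list had 1 higher and 9 lower of 66 regions at an unadjusted limma p under 0.05, against 4.77% and 2.8% of all shared regions, and a median of -0.07 against 0.04. The 6 oxidase genes, Cyba, Cybb and Ncf4 among them, separated from the rest after their values were seen, held all 9, with 26 of 29 regions below 0 and a median of -0.20. The 14 antioxidant genes had a median of 0.03 over 37 regions. In Ncf4, encoding the p40phox subunit (chr15:78246206-78246519), reads were 74.0, 82.6, 82.5 and 56.7 in control and 63.2, 56.5, 47.1 and 47.7 in diabetic libraries. Diabetic replicate 1 lay above control replicate 4, and the log2 difference was -0.46 ± 0.12 (limma, Benjamini-Hochberg adjusted p = 0.473). On the deposited fold the median of the oxidase genes was 0.04 and that of the antioxidant genes 0.05, so the direction of the former was reversed on that scale.

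Adhesion and marrow retention genes had 0 higher and 5 lower of 55 regions and a median of -0.12, against 4.77%, 2.8% and 0.04 for all shared regions. On the deposited fold the list had 1 higher and 0 lower and a median of 0.02 against 0.02 for all regions. Of the 55, 12 regions belong to Itgam and Cxcr2 and were in the neutrophil list. The other 43 had 0 higher and 3 lower and a median of -0.08. All 9 regions of Itgb2, the beta-2 integrin chain of leukocytes, and all 7 of Cd44, the hyaluronan receptor, were below 0, while the regions of Itga4 and Itgb1, which form the VLA-4 integrin of progenitors, lay between 0.12 and 0.28. The S100 and RAGE list had 1 higher and 5 lower of 37, and 1 and 2 of the 29 outside the neutrophil list. Its median of -0.05 turned to 0.08 on the deposited fold, with 2 higher and 0 lower. Its higher region lay in S100a10, the annexin A2 partner (chr3:93554962-93555549), with 28.1, 17.5, 29.3 and 29.8 control reads below 33.5, 38.5, 42.7 and 41.9 diabetic reads, a difference of 0.61 ± 0.17.

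Among genes that carry the IL-1β signal, IL-1 receptor signalling genes had 2 higher and 1 lower of 58 regions at an unadjusted limma p under 0.05, with 7.57% of all shared regions in either direction. Their median was 0.00, and single regions ranged from -0.43, at Tollip, an adaptor that restrains the receptor, to 0.47. The start of Il1rap had 75.5, 75.1, 77.0 and 76.3 reads in control and 77.5, 81.4, 80.8 and 74.4 in diabetic libraries, a log2 difference of 0.05 ± 0.10. Il1r1 differed by 0.08 ± 0.18. The region of most reads within 10 kb of Irak2, which lies at the start of Tatdn2, differed by -0.00 ± 0.10. The 95% intervals of these 3 differences lay within 0.5 log2 units either way. Inside Sigirr, an inhibitory member of the receptor family (chr7:141092329-141092676), 34.0, 20.03, 30.4 and 31.6 control reads lay below 38.3, 38.5, 41.5 and 39.5 diabetic reads, at 0.47 ± 0.16. Irak1, the receptor-proximal kinase, differed by 0.28 ± 0.12 at its start.

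NF-κB feedback genes had 0 higher and 0 lower of 57 regions, against 4.77% and 2.8% of all shared regions, and a median of 0.05. The start of Nfkbia, the IκBα gene, had 95.4, 120.2, 113.9 and 112.5 reads in control and 109.1, 96.8, 106.6 and 133.7 in diabetic libraries, and differed by 0.01 ± 0.10. Tnfaip3, the A20 deubiquitinase gene, differed by 0.07 ± 0.10, and Birc3, which had the smallest p of the list, by 0.20 ± 0.10 (limma, Benjamini-Hochberg adjusted p = 0.667). Immediate early genes had 5 higher and 1 lower of 82 regions and a median of 0.06. At Nr4a2, an orphan nuclear receptor gene (chr2:57116350-57117185), 39.9, 23.8, 26.0 and 34.4 control reads lay just below 41.2, 42.0, 41.5 and 53.5 diabetic reads, a difference of 0.54 ± 0.16. Klf4, a myeloid zinc finger factor, differed by 0.32 ± 0.11 at its start.

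Cytokine and chemokine genes had 0 higher and 2 lower of 35 regions, against 4.77% and 2.8% of all shared regions, and a median of -0.06. Both lower regions were at Il1a, the gene of the other IL-1 receptor agonist. In the gene body (chr2:129306004-129306374), reads were 25.2, 18.8, 17.4 and 18.6 in control and 18.2, 11.1, 12.3 and 8.14 in diabetic libraries. The groups touched at diabetic replicate 1, and the log2 difference was -0.73 ± 0.24 (limma, Benjamini-Hochberg adjusted p = 0.523). The second region (chr2:129313918-129314343) differed by -0.30 ± 0.14.

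For this and the following lists, 4.77% higher and 2.8% lower is the share over all shared regions. Glycolysis genes had 2 higher and 3 lower of 102 regions and a median of -0.03, with Hk2, a hexokinase gene, at -0.49 ± 0.16 and Slc2a3, a glucose transporter gene, at 0.33 ± 0.15. Txnip, a glucose-induced inhibitor of thioredoxin, differed by 0.03 ± 0.10 at its start and Slc2a1 by 0.05 ± 0.10. Insulin signalling genes had 3 higher and 2 lower of 81 and a median of 0.03. Within Pik3cd, the leukocyte PI3-kinase delta gene (chr4:149658015-149658449), 10.4, 15, 14.1 and 15.8 control reads lay below 18.2, 26.6, 23.6 and 25.6 diabetic reads, at 0.77 ± 0.22. Rptor, of the mTORC1 complex, had a region at -0.52 ± 0.19. Sterol genes had 1 higher and 2 lower of 44, and glucocorticoid-responsive genes 2 and 4 of 47.

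Chromatin memory enzymes had 2 higher and 0 lower of 52 regions and a median of 0.03. The higher regions were in Hdac9 (0.58 ± 0.23) and Dnmt3a (0.56 ± 0.23), while the region of most reads at Setd7, an H3K4 methyltransferase studied in diabetic memory, differed by -0.10 ± 0.11. Runx and core myeloid factor genes had 3 and 3 of 97 and a median of -0.04. The region of most reads at Runx1 had 58.4, 81.4, 70.5 and 64.2 control reads within the span of 68.9, 55.7, 71.8 and 58.1 diabetic reads save at control replicate 2, a difference of -0.11 ± 0.11. The 15 shared regions at Runx1 ranged from -0.45 to 0.37, with 1 higher and 1 lower at an unadjusted limma p under 0.05. Spi1, encoding PU.1, differed by -0.12 ± 0.11 and Cebpb by -0.05 ± 0.10. Interferon response and cell cycle genes had 2 higher and 0 lower of 45 and of 62. The plot of list medians shows the neutrophil and erythroid lists at its ends.

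**Figure D4:**
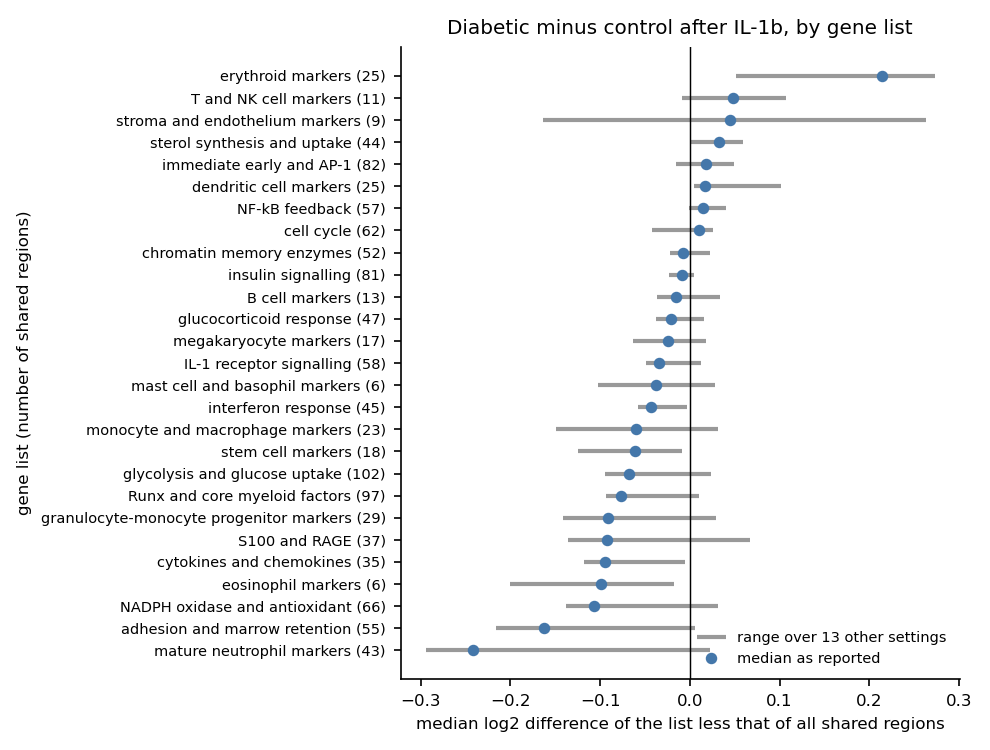
Median log2 difference, diabetic minus control, of each gene list's shared regions less the median of all shared regions (points), and its range over 13 other settings of scaling, measure, weights and left-out libraries (bars). Mature neutrophil genes are lowest at -0.24 and erythroid genes highest at 0.21. The neutrophil bar reaches 0.02 on the deposited fold, where its sign is reversed.

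Presence and absence of peaks were compared next. In lists of equal length, 23035 of 66153 regions were called in all 8 libraries, 12583 in more diabetic than control libraries and 12218 in fewer. A call in all 4 diabetic and 0 control libraries occurred in 52 regions (0.0786%), and the reverse in 53 (0.0801%). Fisher's exact test gave these a p of 0.0286, the smallest it allows, and no region passed after Benjamini-Hochberg adjustment (smallest adjusted p = 1). In full lists the counts were 34 (0.0514%) and 35 (0.0529%), and none of the 52 or 53 was among them, since each had a weaker peak in at least 1 library of the other phenotype. Without control replicate 2, in lists of 47255 peaks, the counts were 127 and 162. These regions were weak, with a median of 15 summit reads in the libraries calling them against 20 in all regions kept and 33 in shared regions. Their median widths of 355.5 and 343 bp were close to the 365 bp of all regions kept. A gene end lay within 1 kb in 7.69% and 11.3% of them, against 21.4% of all regions kept.

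**Figure D5:**
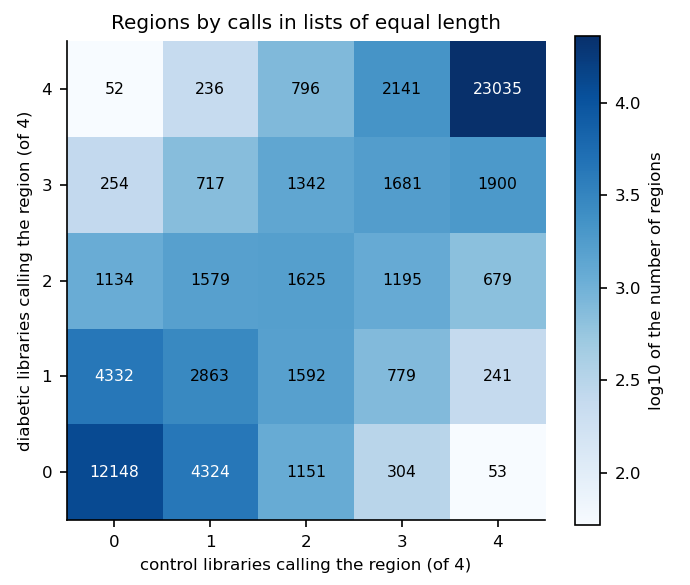
Number of the 66153 regions by how many of the 4 control (horizontal) and 4 diabetic (vertical) IL-1β libraries called them in lists of 37543 peaks each, shaded by the log10 of that number. The corners of complete separation hold 52 and 53 regions, and the grid is nearly symmetric about its diagonal.

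Among the 8 strongest diabetic-only regions was one inside Snd1, a transcriptional coactivator and RNA-binding nuclease gene (chr6:28929217-28929705). It had 13, 22, 12 and 21 unscaled summit reads in diabetic libraries and a peak of 8 reads in control replicate 3 alone. The one inside Smarcad1, a chromatin remodeller gene (chr6:65114898-65115265), had 16, 17, 16 and 12 reads in diabetic and 11 and 10 in control replicates 1 and 4. The others lay near Acsl3, Supt20, Saysd1, Sorl1, Klhl25 and, with no gene within 50 kb, at chr6:51129646-51129990. All had peaks in 2 or 3 control libraries in the full lists, and none in control replicate 2.

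Control-only regions included 2 at genes of the inflammatory response. At Tnf, the tumour necrosis factor gene, a region 582 bp from the start (chr17:35201016-35201425) had 44, 26, 34 and 30 unscaled reads in control libraries and 25, 31 and 22 in diabetic replicates 1 to 3, with no peak in diabetic replicate 4. The 3 diabetic peaks ranked too low for the equal-length lists, although the read numbers of the groups overlapped. At baseline this region was called in 3 control libraries and 1 diabetic library. Far inside Il1rap (chr16:26694961-26695277), reads were 20, 17, 17 and 20 in control and 13, 16 and 10 in diabetic libraries, again with none in diabetic replicate 4. At baseline all libraries of both phenotypes called it. The others lay in Sos2, Filip1, Appl1, Pik3r6, Tex14 and Slc43a2. The last 2 were called in all 8 full lists and differed by -0.47 ± 0.22 and -0.37 ± 0.17 in summit reads.

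Before stimulation, the 52 diabetic-only regions were called in 22, 36, 25 and 32 cases in the diabetic libraries and in 17, 17, 28 and 20 in the control libraries, in replicate order. The 53 control-only regions were called in 32, 39, 32 and 34 cases in control and in 27, 16, 25 and 11 in diabetic baseline libraries. The latter groups did not overlap, the former overlapped. In all regions kept, 54.7% to 56.2% were called in a control and 51.2% to 55.7% in a diabetic baseline library. Baseline and stimulated portions came from the same samples, so the baseline adds no independent samples of a phenotype.

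Position and base composition went along with direction. Over all shared regions, 4.77% were higher and 2.8% lower at an unadjusted limma p under 0.05. Of 10382 shared regions within 1 kb of a gene end, 470 were higher and 114 lower at that level (5.63% in either direction), and 274 and 59 were so without overlap. Of 10123 regions inside genes, 473 were higher and 394 lower (8.56%), and of 8026 outside genes, 417 and 292 (8.83%). The median SE was 0.11 at gene ends, 0.19 inside and 0.20 outside genes, so the counts at a p threshold differ in precision. Under cyclic loess the gene-end counts were 439 and 246, those inside genes turned to 339 and 547, and those outside genes to 298 and 382. The share of lower values at starts was highest in promoters of few CG dinucleotides. Among shared regions over an upstream window with 0 to 4 CG, 24 of 523 were higher and 33 lower (6.31%). In windows with 5 to 9, 10 to 14, 15 to 19 and 20 or more CG, the lower share was 0.770%, 0.168%, 0.345% and 0.146%, while the higher share stayed between 3.94% and 5.26%. Of the 33, 3 were in the neutrophil list. Under cyclic loess the lower share was 7.27% at 0 to 4 CG (38 regions) and at most 1.71% elsewhere, although the most lower regions, 58, then lay at 20 or more CG, and on the deposited fold it was 2.49% against 0.204% to 1.11%.

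Windows under non-overlapping lower regions had a median of 7 CG, those under higher regions 16, and all those under shared regions 18. The Ltf window printed above, with 4, is of the first kind, and those of Rundc3b and Cyp46a1, with 21 and 23, lie above the median of all. The ETS/PU.1 motif GAGGAAGT, searched on both strands, was in 5 of 37 lower windows (13.5%), those of Nadk, Fmnl1, Cd300ld, Gapt and B430306N03Rik. It was in 2.39% of 251 higher windows, 2.65% of windows under shared regions and 2.23% of all 21262 windows. The RUNX core TGTGGT was in 8.11% of lower and 7.57% of higher windows, 9.96% of shared and 12.4% of all. The AP-1 motif TGANTCA was in 0 lower windows and in 5.18% of higher, 3.73% of shared and 6.13% of all. GGANTTTCC for NF-κB and TTGCGCAA for C/EBP were each in 0 lower windows, in 0.398% and 0.797% of higher and in 0.987% and 0.319% of shared. A match is a string of letters and not a bound site.

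The phenotype difference after IL-1β was set against that at baseline in 25134 regions called in all 16 libraries. The baseline portions were not cultured, so the culture and IL-1β cannot be told apart in this comparison. No interaction passed in limma (0 regions, 0.0%, smallest Benjamini-Hochberg adjusted p = 0.9998), and 414 (1.65%) reached an unadjusted p under 0.05, 228 with a positive interaction (diabetic minus control more positive after IL-1β) and 186 with a negative one. With the mouse sample as a block the count past the threshold was again 0, and 475 and 364 regions were at an unadjusted p under 0.05. Among the named regions, Kcnc1 differed by 0.11 at baseline against 0.94 after IL-1β, Rbms1 by 0.01 against -0.49 and Susd4 by -0.16 against -0.80. The Il1a region differed by 0.25 at baseline and by -0.73 after IL-1β, an interaction of -0.98. A region in Itgb2 (chr10:77530861-77531540) differed by 0.16 at baseline and by -0.32 after IL-1β, an interaction of -0.49. All of these were at an unadjusted interaction p under 0.05 in limma, and their Benjamini-Hochberg adjusted p was 0.9998.

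At other named regions the baseline log2 difference was 0.53 at Lca5, 0.52 at Rundc3b, -0.76 at Tex33, -0.43 at Actn1 and -0.50 at the start of Ltf. It was smaller than after IL-1β at Pim1 (0.53), Ccr9 (0.45), Ext1 (0.29), Cyp46a1 (0.23), Rprd1b (-0.39), St8sia1 (-0.38), Nr4a2 (0.09) and Sigirr (0.13), none of them at an unadjusted interaction p under 0.05. As regions chosen on the difference after IL-1β, these are given as a description. The neutrophil list, over its 29 regions called in all 16 libraries, had a median of -0.32 at baseline and -0.19 after IL-1β, against 0.07 and 0.04 for all regions. At baseline 13 of the 29 were lower and 0 higher at an unadjusted limma p under 0.05. Of all 25134 regions, 1183 were lower and 1765 higher at baseline at that level. For the interaction, 0 of the 29 neutrophil regions were at that level, with a median interaction of 0.10. Summed reads at baseline were 1597, 1658, 1459 and 1591 in control and 1653, 1330, 1380 and 970 in diabetic libraries. Diabetic replicate 1 was as high as the controls there, and diabetic replicate 4 was the lowest library both before and after IL-1β. The erythroid list had medians of 0.18 at both times over 20 regions.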

How the data were processed

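Peak lists of 8 ATAC-seq libraries in narrowPeak format were analysed, with those of the 8 baseline libraries for the interaction. Per the labels' protocols, the libraries gave 50-bp single reads and fragments over 1200 bp were removed. The submitters' processing notes name, without roles, MACS2 2.1.1, Bowtie2 2.2.6, Trim Galore 1.8, FastQC 0.11.3, edgeR, DiffBind 2.4.8 and build mm10. Treatment of duplicates and any shift of reads for Tn5 are not given in the sources used here. Each deposited peak carries a summit offset in bases, a score, −log10 p and q values, and the summit's fold (ratio) over local background. The deposited score was not used. The fold of the authors' caller is (reads + 1)/(background + 1) and its −log10 p is that of a Poisson count, so whole summit reads and the local background were solved from the pair. The solution came within 0.001 of the deposited −log10 p for 100% of summits in each of the 8 libraries. Total reads per library were not used here, and 26 to 44 median reads at shared summits set the precision.

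Peaks on main chromosomes were merged, and regions called in at least 2 of the 8 libraries were kept. Calls were compared in lists of equal length, the 37543 strongest peaks by the deposited −log10 p, with Fisher's exact test. Summit reads of regions called in all 8 were scaled to equal medians, log2 transformed and fitted with limma 3.58.1 (trend) in R 4.3.3, with Benjamini-Hochberg adjustment at 0.05. The fit was tested on simulated data. The interaction used 4 group means over 16 libraries. Measures with 1 value per library had exact permutation tests (scipy 1.17.1 in Python 3.11.15).

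Groups came from the sample titles. The series design speaks of mouse samples and the labels do not say whether each was 1 mouse or a pool, so p-values measure the spread between these samples. Same-numbered diabetic and control libraries are different samples, and their deviations correlated at 0.0882, -0.0890, -0.0539 and 0.242, so the main fit has no block. Genes come from RefSeq for GRCm38.p6, with 21883 protein-coding genes, and 396 of 399 list symbols matched (Mx1, Mx2 and Ahsp did not). Motif counts leave out chromosome 18. A list's regions lie within 10 kb of its genes' bodies, without exon or intron annotation.

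Regions named were the 12 per direction of smallest limma p without overlap, at most 1 per nearest gene (none passed), the 8 strongest one-phenotype calls per direction, the 2 of smallest p per list, and the region of most reads at 13 fixed genes. Lgmn, the second regions of Ltf and other list members named beside these were chosen after their values were seen. The members, lists and rules were chosen with earlier results of these data known, so no list is independent evidence. Alternatives covered scaling, measure, filters, region sets, weights, the block and each library left out. A few list members are not reported here.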

Additional observations from a re-analysis of the deposited data

Results flagged for a closer look

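In 8 of 192 groups of 4 libraries, 1 library stood far from the other 3, where chance would give 9.6 at 1 in 20. The values are scaled summit reads, and each library named lay outside the span expected from the other 3. The diabetic replicate 4 library was high at Lca5 with 67.4 and at Nr4a2 with 53.5, and at both the other diabetic libraries still lay above all controls. Among regions with lower diabetic values, diabetic replicate 3 was high at St8sia1 with 23.6 and control replicate 2 was high at Rprd1b with 28.8. At Ccr9 diabetic replicate 2 was low with 25.7, still above every control. Control replicate 4 was high at Irak1 with 64.2, above every diabetic library, control replicate 2 was low at S100a10 with 17.5, and control replicate 3 was high at Nr1h3 with 59.7.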

How the results depend on the processing

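Values of the difference between phenotypes that sat near 0 changed sign. The difference in peaks per library, 641, was -755 at a −log10 q of at least 5 and ranged from -4506 to 5573 with 1 library left out. The difference in gene-end share, -0.0349 percentage points, was 0.0716 at 500 bp and ranged from -0.177 to 0.205 with 1 library left out. The excess of within-phenotype r, 0.00459, ranged from -0.00155 to 0.0113. Calls in all libraries of 1 phenotype alone, 52 diabetic and 53 control, were 34 and 35 in full lists, 26 and 30 at a −log10 q of at least 5, and 99 to 133 and 75 to 162 with 1 library left out, where 4 against 3 libraries is a weaker demand. The neutrophil list less all regions, -0.24, was 0.022 on the deposited fold, the single reversal among its alternatives, and ranged from -0.29 to -0.19 with 1 library left out. The interaction called 0 regions under every alternative run.

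The replicate block (same-numbered libraries) gave 3 higher and 2 lower regions past the limma threshold against 0 and 0. These were Lgmn (Benjamini-Hochberg adjusted p = 0.0023 in limma), Lca5 (0.0212), Pim1 (0.0226), Tex33 (0.0162) and Ngp (0.0356). The numbers do not pair the samples, and the block was not used elsewhere. Leaving out 1 library called 0 to 1 higher regions, the 1 being Lgmn without control replicate 1, and 0 lower. The block changed no call of the interaction, where the mouse sample served as replicate block and 0 regions passed.

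Among regions at an unadjusted limma p under 0.05, those higher in diabetic libraries made up 63.0%. The share was 47.8% under cyclic loess, 45.0% on the deposited fold, 0.55% under background scaling, 80.2% in regions called in at least 6 of 8 libraries and 74.1% without control replicate 2. The split of small differences by direction therefore changed with the scaling and the measure. Of 68 other named regions, 21 changed sign in at least 1 of their alternatives, in 46 of 1254 values. Summits of 26 to 44 median reads left a median half-width of the 95% interval of 0.34 log2 units. That is no limit of detection, since no region passed after adjustment, the largest difference being 1.17. Settings added after the data were seen are the fit of regions called in the 7 libraries other than control replicate 2, which called 0 (1266 higher and 865 lower unadjusted), and the alternatives of the list medians.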

Other observations

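Granulocyte-monocyte progenitor genes, described above only by their count, had 19 of 29 regions below 0 after IL-1β, with a median log2 difference of -0.05 against 0.04 for all shared regions. The lower quartile of all shared regions was -0.08, so a good part of all regions also lay below 0. Per gene, the median over shared regions was lower than 0 at Fcgr3 (-0.10), Cebpe (-0.03), Csf3r (-0.06), Csf1r (-0.07), Cebpa (-0.07), Ms4a3 (-0.03) and at Elane and Prtn3 (-0.16), neutrophil proteases whose 3 regions are the same. It was above 0 at Mpo, the myeloperoxidase gene (0.05), Ctsg, the cathepsin G gene (0.17), and Gfi1 (0.34) and Irf8 (0.40), the factors of granulocyte and monocyte fate. The difference between this list and the mature neutrophil list was not tested.

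Antioxidant genes had 14 of 37 regions below 0. All shared regions had a lower quartile of -0.08 and a median of 0.04, so such a count may be no more than their share. The 5 regions of Hmox1, the haem oxygenase gene, ranged from 0.03 to 0.23 and the 3 of Keap1, the sensor of the NRF2 pathway, from 0.02 to 0.14. Gene medians were -0.08 at Nfe2l2, which encodes NRF2, -0.09 at Slc7a11 and -0.10 at Nqo1.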
